A study of Homo sapiens with 10 samples.

Results

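The genes described here encode contractile proteins and targets of serum response factor (SRF) or of YAP, measured after MDA-MB-231 cells were sorted by an Oct4 reporter. MDA-MB-231 is an established human breast cancer line of basal type that came from a metastasis. They were chosen by name: every probe set annotated to CNN1, TAGLN, ACTG2, TPM2, TPM4, CALD1, ANKRD1 or NPPB was taken, which gave 18 probe sets for 8 genes. The table held 25750 probe sets, of which 18683 were annotated to a single symbol, for 12083 genes in all. The cells of every group had been stably transfected with pEGFP1-Oct3/4, which places GFP under the Oct4A promoter, and selected with neomycin. Whether the transfectants were 1 clone or a pool is not given in the sources used here. GFP intensity defined Oct4hi BCCs (the top 5% of cells, 4 arrays), Oct4low BCCs (the lowest 5%, 4 arrays) and Oct4med BCCs (cells between both extremes, 2 arrays). The study's text also gives another width for the Oct4low gate. It gives a width for the Oct4med gate too, under which these cells are only part of those between the extremes. The subsets differed in no treatment, and 100 ng of total RNA went into each array.

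SRF binds the CArG box of muscle and actin genes. Its coactivators of the MRTF family are held back by free actin monomers and enter the nucleus when actin polymerizes. YAP and its relative TAZ have no DNA-binding domain of their own. They enter the nucleus on stiff substrates or under tension and act through TEAD factors. Calponin, transgelin, tropomyosin and caldesmon lie along actin filaments and set how myosin pulls on them, and they are known from smooth muscle, myofibroblasts and mesenchymal tumor cells.

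The promoters are shown to set the members beside the factors that their group is named for. Windows from 250 bases before to 50 bases after a RefSeq gene start (GRCh38.p14) were at hand for 6 of the 8 genes, 12 windows in all. The set of windows used here lacked TAGLN and NPPB, so their promoters were not searched. The motifs searched on both strands were the CArG box (CC, then 6 bases of A or T, then GG) and GGAATG, the core that TEAD factors bind. They can share a GG or a CC at their edge, and no window of a member held both. Capitals mark a match. The windows of ACTG2 (chr2:73892758-73893057, plus strand), TPM4 (chr19:16067288-16067587, plus strand), ANKRD1 (chr10:90921038-90921337, minus strand) and CNN1 (chr19:11538601-11538900, plus strand) read, from 5′ to 3′:
ACTG2: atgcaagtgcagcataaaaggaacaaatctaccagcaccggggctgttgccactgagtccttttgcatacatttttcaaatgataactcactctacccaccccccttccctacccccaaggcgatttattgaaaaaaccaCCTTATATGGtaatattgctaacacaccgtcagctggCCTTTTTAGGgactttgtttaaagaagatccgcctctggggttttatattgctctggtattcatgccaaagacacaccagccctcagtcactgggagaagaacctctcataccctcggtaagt
TPM4: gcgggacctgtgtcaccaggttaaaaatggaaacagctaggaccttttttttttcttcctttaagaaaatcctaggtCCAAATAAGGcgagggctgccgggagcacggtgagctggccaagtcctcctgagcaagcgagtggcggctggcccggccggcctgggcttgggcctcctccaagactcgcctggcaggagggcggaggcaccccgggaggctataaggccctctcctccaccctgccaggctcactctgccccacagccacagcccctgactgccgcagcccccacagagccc
ANKRD1: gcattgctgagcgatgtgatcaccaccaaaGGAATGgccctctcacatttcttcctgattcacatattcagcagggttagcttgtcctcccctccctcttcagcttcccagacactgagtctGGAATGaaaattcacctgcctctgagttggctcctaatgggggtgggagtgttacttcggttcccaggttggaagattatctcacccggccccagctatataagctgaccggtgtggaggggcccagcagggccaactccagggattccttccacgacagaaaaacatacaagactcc
CNN1: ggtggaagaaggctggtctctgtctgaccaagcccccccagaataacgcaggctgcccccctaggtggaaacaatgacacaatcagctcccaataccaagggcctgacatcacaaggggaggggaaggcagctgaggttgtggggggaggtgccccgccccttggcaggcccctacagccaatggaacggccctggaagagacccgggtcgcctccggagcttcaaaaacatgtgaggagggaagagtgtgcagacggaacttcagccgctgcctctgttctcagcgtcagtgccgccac
ACTG2 had CArG boxes that began 110 and 73 bases before the start, and TPM4 had one at 173 bases in the window shown and none in its 2 other windows. ANKRD1 had GGAATG at 220 and 128 bases before the start. CNN1 had neither set of letters in its window. A CArG box stood in 2 of the 12 member windows and in 1.29% of all 35116 windows of this length, and GGAATG in 3 of 12 and in 14%. CALD1 held the other GGAATG matches, in 2 of its 4 windows. These matches describe the letters of the windows and not binding.

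Of the 18 member probe sets, 15 reached the median of the array in 2 or more arrays and were tested. The other 3 (TPM2 229911_at, TPM4 235922_at and CALD1 205525_at) had means below the array medians. Differences were tested with limma's moderated test and adjusted by Benjamini-Hochberg over all 13872 tested probe sets, with 0.05 as the threshold. Array medians were 5.05 to 5.14 (log2), and the SD between replicates had a median of 0.119 to 0.124 over all tested probe sets. The labels call the replicates biological. Arrays of bulk cells cannot tell fewer cells that express a gene from less RNA per cell.

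Most members were higher in Oct4hi than in Oct4low BCCs, and a smaller number moved in Oct4med BCCs. In Oct4hi against Oct4low BCCs, 10 of the 15 tested probe sets were higher and 1 was lower, where 34.9% of all tested probe sets were called (18.2% higher and 16.7% lower). In 13 of the 15 the arrays of both subsets did not overlap, as in 33.8% of all. The median difference of the 15 was 0.55 (log2), beside 0 over all tested probe sets. In Oct4med against Oct4low BCCs, 2 were higher and 4 lower, with 20.7% called over all probe sets (5.19% higher and 15.5% lower). In 8 the arrays did not overlap, against 40.5% of all, and the median was 0.08. In Oct4hi against Oct4med BCCs, 6 were higher and none was lower, with 26.8% called over all probe sets (18.2% higher and 8.61% lower). In 6 the arrays did not overlap, against 45.2% of all, and the median was 0.17. At an unadjusted p under 0.05, limma called none of the 15 lower there either. The comparisons share arrays and are not independent. All members were chosen with earlier results of these data known, so a count above the share over all probe sets is not independent evidence. CNN1, TAGLN and NPPB are also among genes that the study lists from these arrays, so their direction is not independent evidence either. The counts also rest on several probe sets for some genes.

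**Figure D1:**
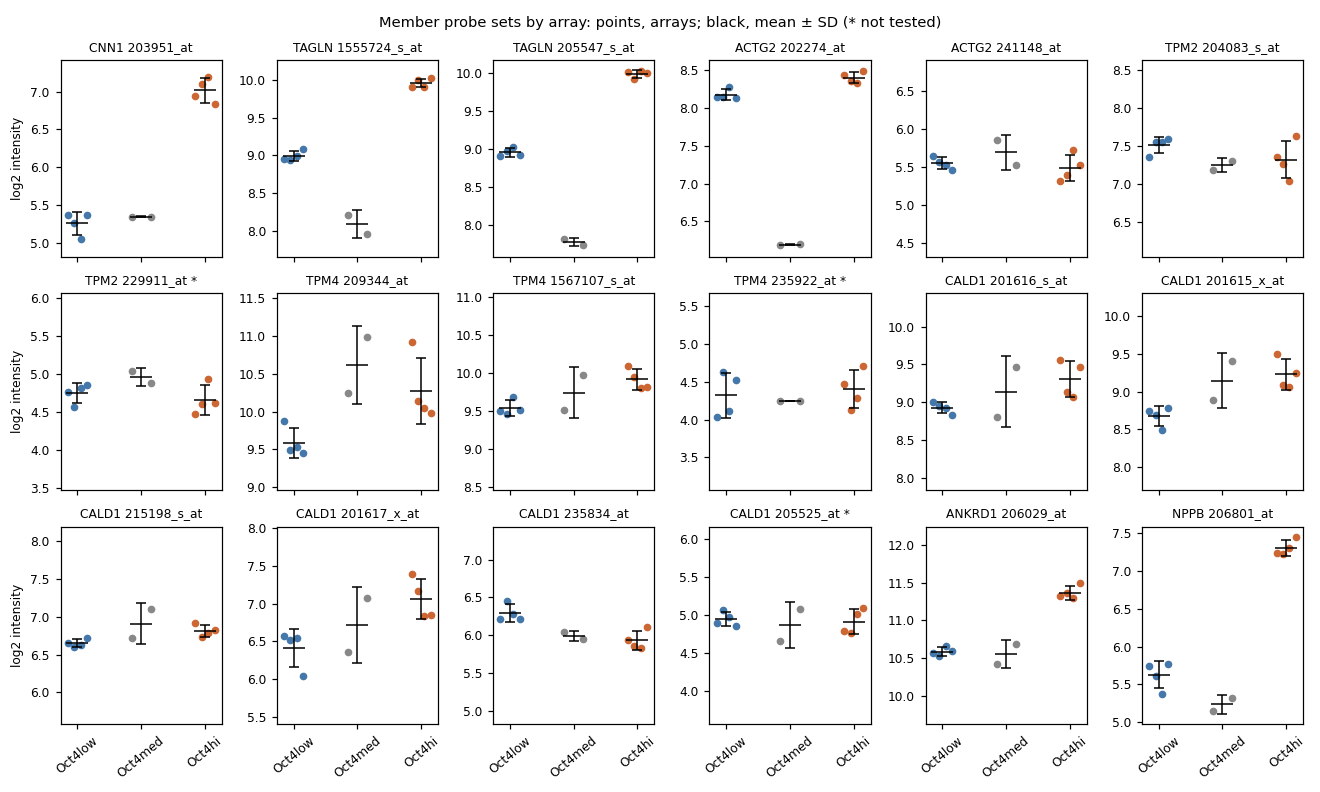
Log2 intensity (vertical) of the 18 member probe sets in each array of the 3 subsets (horizontal); points are arrays, black bars the mean ± SD, and a star marks probe sets that were not tested. CNN1, TAGLN, ANKRD1 and NPPB have every Oct4hi array above every other array, and ACTG2 202274_at falls to 6.19 and 6.20 in Oct4med BCCs.

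CNN1 encodes calponin 1, which binds actin and restrains the actomyosin ATPase. Its probe set 203951_at read 5.37, 5.26, 5.05 and 5.37 (log2) in the Oct4low arrays, 5.34 and 5.35 in the Oct4med arrays and 6.94, 7.10, 7.19 and 6.83 in the Oct4hi arrays. Every Oct4hi array was above all others, while Oct4low and Oct4med arrays overlapped. The difference from Oct4low to Oct4hi BCCs was 1.75 (3.36-fold, SE 0.10, n = 4 and 4, limma's adjusted p = 1.66e-07). Between Oct4med and Oct4hi BCCs it was 1.67 (SE 0.12, adjusted p = 1.88e-06 from limma). No difference passed the test between Oct4med and Oct4low BCCs (0.08, 95% interval -0.18 to 0.34). The Oct4low and Oct4med values were close to the array medians.

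TAGLN encodes transgelin (SM22), an actin cross-linker and a classic SRF target, and it had a separate level in each subset. On probe set 205547_s_at the Oct4low arrays read 8.90, 8.97, 9.02 and 8.92, the Oct4med arrays 7.81 and 7.73 and the Oct4hi arrays 9.92 to 10.03. No array of one subset overlapped another subset. Oct4med BCCs were the lowest, at 7.77 ± 0.05 (SD, n = 2), followed by Oct4low (8.95 ± 0.06, n = 4) and Oct4hi BCCs (9.99 ± 0.05, n = 4). The change from Oct4low BCCs was -1.19 in Oct4med (SE 0.08, limma's adjusted p = 1.84e-06) and 1.04 in Oct4hi BCCs (SE 0.07, adjusted p = 5.11e-07). The other probe set, 1555724_s_at, gave -0.90 and 0.97 in the same comparisons and also passed in all of them. TAGLN thus differed by 2.22 (4.66-fold) on the first probe set between Oct4hi and Oct4med BCCs.

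ACTG2, the enteric smooth muscle gamma-actin, fell in Oct4med BCCs. On probe set 202274_at, the Oct4low arrays read 8.14, 8.14, 8.28 and 8.13, the Oct4med arrays 6.19 and 6.20 and the Oct4hi arrays 8.43, 8.35, 8.33 and 8.48. Both Oct4med arrays were thus far below all the rest. The Oct4med level was lower than the Oct4low level by 3.94-fold (-1.98, SE 0.09, n = 2 and 4, limma's adjusted p = 1e-07). Oct4hi BCCs were 2.20 above Oct4med BCCs (SE 0.09, adjusted p = 9.88e-09 from limma). Against Oct4low BCCs the Oct4hi level was 0.22 higher (SE 0.07, 95% interval 0.07 to 0.37, adjusted p = 0.0258 from limma), and this call was lost in 7 of 21 alternatives (adjusted p from 0.00798 to 0.0784), among them no filter and leaving out any 1 of Oct4low replicates 1, 2 and 4 or Oct4hi replicates 1 and 4. The second ACTG2 probe set, 241148_at, did not follow. It read 5.46 to 5.65 in Oct4low, 5.53 and 5.85 in Oct4med and 5.32 to 5.72 in Oct4hi arrays, near the array medians, and no comparison passed. Actin genes are much alike in their coding sequence. The sequences of these probes were not examined here, so any signal from other actins in them cannot be told apart.

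Oct4med BCCs were also apart in a technical measure. One of the manufacturer's control probe sets for the large ribosomal RNA read 13.53 to 13.70 in Oct4low, 12.64 and 12.77 in Oct4med and 13.54 to 13.60 in Oct4hi arrays. A second one read 11.93 to 12.01, 11.38 and 11.63, and 11.78 to 11.92. These controls were thus lowest in the subset in which TAGLN and ACTG2 were lowest. The third control for this RNA, near the array medians, had means of 5.30 in Oct4low, 5.27 in Oct4med and 5.21 in Oct4hi arrays. Their part in these results was not tested.

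NPPB encodes the precursor of B-type natriuretic peptide, which cardiac muscle secretes when stretched. Probe set 206801_at read 5.74, 5.61, 5.38 and 5.77 in Oct4low, 5.15 and 5.32 in Oct4med and 7.23, 7.22, 7.30 and 7.45 in Oct4hi arrays. Oct4hi arrays lay above all others, and the Oct4med arrays just below the lowest Oct4low array. Oct4hi BCCs were higher by 1.67 than Oct4low BCCs (3.19-fold, SE 0.10, limma's adjusted p = 2.02e-07) and by 2.07 than Oct4med BCCs (4.19-fold, adjusted p = 3.13e-07). From Oct4low to Oct4med BCCs, NPPB fell by 0.39 (SE 0.12, adjusted p = 0.035 from limma), a call lost in 10 of 21 alternatives, where the adjusted p ranged from 0.0112 to 0.223. Leaving out Oct4med replicate 1 gave the highest, and leaving out Oct4med replicate 2 or Oct4low replicate 1, 2 or 4 also ended the call.

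ANKRD1, an ankyrin repeat protein of stressed muscle and one of the most used YAP target genes, rose in Oct4hi BCCs over both other subsets. Probe set 206029_at read 10.57, 10.53, 10.66 and 10.60 in Oct4low, 10.43 and 10.69 in Oct4med and 11.32, 11.36, 11.29 and 11.50 in Oct4hi arrays. The 4 Oct4hi arrays were above the other 6, which overlapped. Differences were 0.78 against Oct4low (1.72-fold, SE 0.08, limma's adjusted p = 2.64e-05) and 0.81 against Oct4med BCCs (1.75-fold, SE 0.10, adjusted p = 0.000142). Between Oct4med and Oct4low BCCs the difference was -0.03 (95% interval -0.24 to 0.18). It is printed with no direction, since the sign turned to 0.04 when the values were quantile normalized again.

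**Figure D2:**
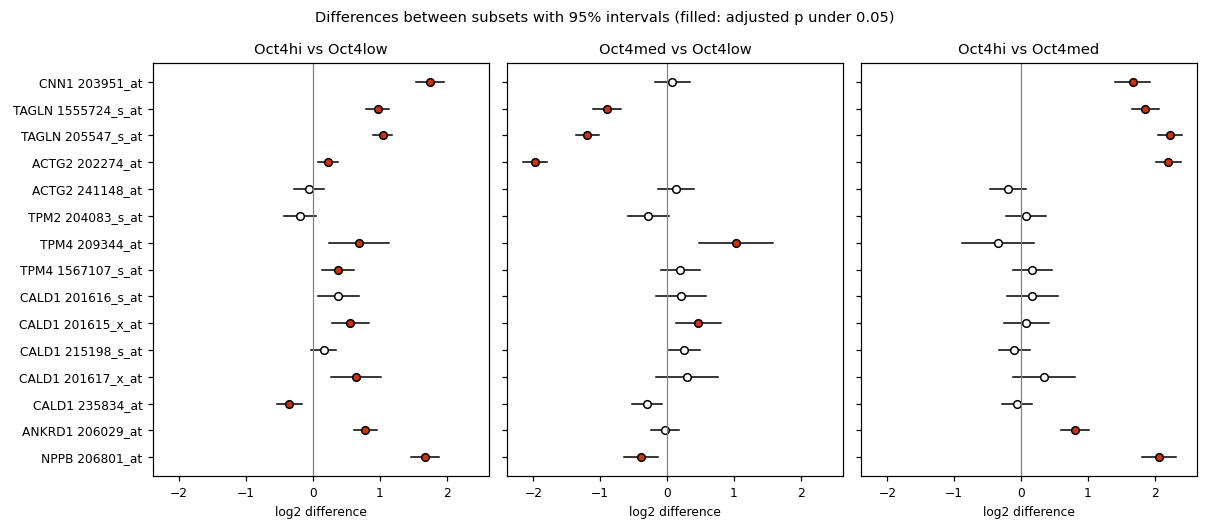
Log2 difference (horizontal) of the 15 tested member probe sets (vertical) in the 3 comparisons of subsets; bars are 95% intervals from limma, and filled points have an adjusted p under 0.05. In Oct4hi against Oct4low BCCs, 10 probe sets are filled to the right of 0 and 1 (CALD1 235834_at) to the left, while ACTG2 202274_at and both TAGLN probe sets lie far to the left in Oct4med against Oct4low BCCs.

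Tropomyosins coil along actin filaments and decide which myosins and actin-binding proteins reach them. TPM4, a non-muscle form, was higher in Oct4hi BCCs on both of its tested probe sets. Probe set 209344_at read 9.87, 9.49, 9.53 and 9.45 in Oct4low, 10.25 and 10.98 in Oct4med and 10.92, 10.14, 10.05 and 9.98 in Oct4hi arrays. All Oct4med and Oct4hi arrays were above all Oct4low arrays, with 1 array of each standing high. The rise over Oct4low BCCs was 0.69 in Oct4hi (SE 0.21, limma's adjusted p = 0.0214) and 1.03 in Oct4med BCCs (2.04-fold, SE 0.25, adjusted p = 0.0135). Without Oct4hi replicate 1 the first was 0.47 (adjusted p = 0.0455). It was lost in 5 of 21 alternatives (adjusted p up to 0.081), which were the two-sample test, an intensity trend with a robust prior, and leaving out Oct4low replicate 2, 3 or 4. Without Oct4med replicate 2 the second was 0.67 (adjusted p = 0.135), and it was also lost with the two-sample test (adjusted p = 0.11) and with the replicate block (0.85, adjusted p = 0.0709). Probe set 1567107_s_at rose by 0.38 in Oct4hi over Oct4low BCCs (SE 0.11, adjusted p = 0.0185 from limma), from 9.46 to 9.69 across Oct4low arrays to 9.80 to 10.10 across Oct4hi arrays. That call was lost without Oct4low replicate 2 (adjusted p = 0.0517) or Oct4hi replicate 1 (adjusted p = 0.0609). In Oct4med BCCs it read 9.51 and 9.98 and did not pass. The untested 235922_at had mean levels between 4.24 and 4.4 in the 3 subsets.

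TPM2, the beta-tropomyosin of muscle, passed no comparison. Probe set 204083_s_at read 7.36, 7.56, 7.56 and 7.59 in Oct4low, 7.18 and 7.31 in Oct4med and 7.35, 7.26, 7.04 and 7.64 in Oct4hi arrays. Oct4hi and Oct4low arrays overlapped, with a difference of -0.20 (95% interval -0.44 to 0.05). Without Oct4hi replicate 4 it was -0.30 and passed (limma's adjusted p = 0.0316). Oct4med BCCs differed from Oct4low BCCs by -0.28 (95% interval -0.58 to 0.03). The untested 229911_at had means of 4.65 to 4.96.

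CALD1 encodes caldesmon, which blocks myosin on actin filaments until it is phosphorylated, and its probe sets disagreed. From Oct4low to Oct4hi BCCs, 2 of 5 tested probe sets rose, 1 fell and 2 did not pass. Probe set 201615_x_at read 8.74, 8.69, 8.49 and 8.78 in Oct4low, 8.89 and 9.40 in Oct4med and 9.50, 9.09, 9.06 and 9.25 in Oct4hi arrays. Its Oct4hi arrays were all above its Oct4low arrays, by 0.55 on average (SE 0.13, limma's adjusted p = 0.00526). 201617_x_at was higher by 0.65 (SE 0.17, adjusted p = 0.0127), with Oct4low arrays at 6.04 to 6.57 and Oct4hi arrays at 6.84 to 7.39. In contrast, 235834_at fell by 0.36 (SE 0.09, adjusted p = 0.007), with 6.21 to 6.46 in Oct4low and 5.83 to 6.11 in Oct4hi arrays. The remaining pair had differences of 0.38 (201616_s_at, limma's adjusted p = 0.055) and 0.16 (215198_s_at, adjusted p = 0.172), though in both every Oct4hi array was above every Oct4low array. Over all tested probe sets, 33.8% had no overlap of these subsets, counting both directions. For 201616_s_at, 7 of 20 alternatives passed the threshold. In Oct4med BCCs only 201615_x_at passed (0.47, adjusted p = 0.0487 from limma), a call lost in 14 of 20 alternatives, with 0.22 (adjusted p = 0.394) when Oct4med replicate 2 was left out. The untested 205525_at had means of 4.86 to 4.94. Which CALD1 transcripts each probe set detects was not analysed here, and the suffix _x_at marks probes that can bind other transcripts.

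TPM4 and CALD1 shared a pattern among replicates. Oct4hi replicate 1 was the highest Oct4hi array in 6 of their 7 tested probe sets, in 0 of the other 8 tested member probe sets and in 23.6% of all 13872. Oct4med replicate 2 was above replicate 1 in 6 of the 7, in 5 of the other 8 and in 57.8% of all. CALD1 235834_at was the exception in both. The 18S ribosomal RNA control moved in the same arrays: it read 12.77 to 12.96 in Oct4low, 12.80 and 13.15 in Oct4med replicates 1 and 2, 13.34 in Oct4hi replicate 1 and 13.04 to 13.10 in the other Oct4hi arrays. Its part in the TPM4 and CALD1 differences was not tested. Over the 15 tested members the median SD was 0.183 in Oct4med, 0.141 in Oct4hi and 0.105 in Oct4low BCCs.

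**Figure D3:**
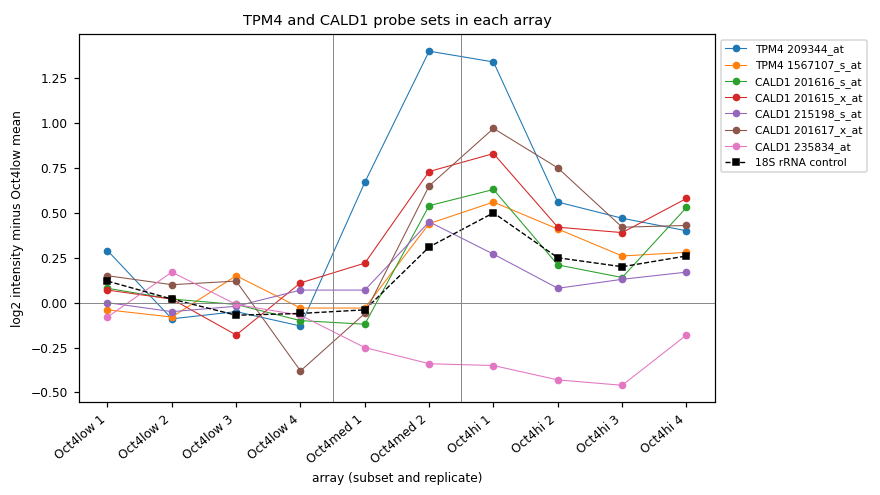
Log2 intensity minus the Oct4low mean (vertical) of the 7 tested TPM4 and CALD1 probe sets and of the 18S ribosomal RNA control (dashed) in each of the 10 arrays (horizontal); lines only join the points of a probe set. In Oct4hi replicate 1 and Oct4med replicate 2, 6 of the 7 probe sets and the control stand above the other arrays of their subset.

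The members thus had several orders of subsets. CNN1 and ANKRD1 were highest in Oct4hi BCCs, with Oct4low and Oct4med BCCs not separated. TAGLN and NPPB followed the order Oct4hi, Oct4low, Oct4med, with the last step of NPPB unstable. ACTG2 202274_at had the same order, but with a large step down to Oct4med BCCs and a small one between Oct4low and Oct4hi BCCs. TPM4 209344_at and CALD1 201615_x_at were lowest in Oct4low BCCs, with an unstable step to Oct4med BCCs, and Oct4med and Oct4hi BCCs were not separated. TPM4 1567107_s_at was separated only between Oct4low and Oct4hi BCCs.

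The genes whose profile over the 10 arrays lay nearest to that of CNN1 were found by the root mean square difference of mean-centred log2 values among 7638 tested genes. They were TMEM132D-AS1 (0.165), MAMDC2 (0.165), MAOA (0.20), NPPB (0.223) and CYRIA (0.265). MAMDC2, for example, had means of 7.56 (Oct4low), 7.53 (Oct4med) and 9.12 (Oct4hi). TMEM132D-AS1 had means of 4.58, 4.69 and 6.44, and only the last was above the array medians. MAMDC2, MAOA and NPPB, like CNN1, are among genes that the study lists from these arrays. TAGLN ranked 35 and ANKRD1 ranked 44 in this order, followed by CALD1 at 1399, TPM4 at 3085, ACTG2 at 4148 and TPM2 at 5860, each by the probe set of highest mean.

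Other contractile genes were taken from lists of relatives and partners of the members. Here too a gene is given by the probe set of highest mean. TPM1, the tropomyosin of both muscle and stress fibers, rose by 0.32 in Oct4hi over Oct4low BCCs (adjusted p = 0.00295 from limma), with all 3 of its tested probe sets higher. ACTA2, the alpha-actin of smooth muscle and myofibroblasts, was the only tested gene of 5 listed actins and rose by 0.38 (adjusted p = 0.0143). Its means of 5.59 (Oct4low) and 5.96 (Oct4hi) were not far above the array medians. Of 5 tested myosin II genes, MYH10, a non-muscle heavy chain, rose by 0.56 (adjusted p = 0.00122) and MYL12A, a regulatory light chain, fell by 0.56 (adjusted p = 0.000486), but only 1 of the 3 MYL12A probe sets was lower. MYL9, the light chain of smooth muscle type, had means of 9.36 (Oct4low), 8.88 (Oct4med) and 9.36 (Oct4hi). It passed against Oct4med BCCs from both sides (adjusted p = 0.00103 and 0.000972), and its second probe set was also higher in Oct4hi than in Oct4low BCCs. MYLK, the kinase of those light chains, was 0.33 lower in Oct4hi than in Oct4med BCCs (adjusted p = 0.0118). The calponin and transgelin relatives CNN3 (0.02) and TAGLN3 (0.06) passed no comparison.

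Of 15 listed genes for proteins that link actin to adhesions or filaments, 8 were in the table and 6 were tested. Transcripts of 3 of the 6 were higher in Oct4hi than in Oct4low BCCs and none was lower, with a median difference of 0.21. Over all tested probe sets, 18.2% were higher and 16.7% lower. They were the adhesion protein LPP (0.48, limma's adjusted p = 0.00717, on 1 of its 3 tested probe sets), desmin (DES, 0.36, adjusted p = 0.00483) and smoothelin (SMTN, 0.21, adjusted p = 0.0336). Talin (TLN1) had 0.20 there, which did not pass, and rose by 0.36 over Oct4med BCCs (adjusted p = 0.0148). In Oct4med against Oct4low BCCs 2 of the 6 were lower and none was higher (median -0.12).

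Of 11 tested genes of the SRF and YAP machinery, 2 were higher and 3 lower in Oct4hi than in Oct4low BCCs, with a median of -0.09 and with 34.9% called over all tested probe sets. SRF itself was at 6.05, 5.81 and 5.81 (log2) in Oct4low, Oct4med and Oct4hi BCCs and passed no comparison, nor did its coactivator MRTFA (6.28, 6.47 and 6.39). WWTR1, which encodes TAZ, fell by 0.58 (limma's adjusted p = 0.000111, on 1 of its 2 probe sets), whereas its DNA-binding partners TEAD1 (0.33, adjusted p = 0.0407) and TEAD4 (0.22, adjusted p = 0.0203) rose. LATS2, a kinase that holds YAP in the cytoplasm and is itself a YAP target, fell by 0.24 (adjusted p = 0.0423). LATS1 (-0.09) and ROCK1 (0.11) did not pass in Oct4hi against Oct4low BCCs or in the other comparisons. MRTFB, MYOCD and TEAD2 had means below the array medians and were not tested. YAP1 itself, TEAD3 and ROCK2 had no probe set annotated to them alone.

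Other targets of YAP were examined beside ANKRD1. A published signature of 22 YAP target genes, which includes ANKRD1, had 15 tested genes. The rest, among them the widely used targets CCN1 and CCN2 as well as AMOTL2 and AXL, had no probe set annotated to them alone. The counts below thus do not cover them. In Oct4hi against Oct4low BCCs 3 were higher and 3 lower, with a median of -0.07, a share near the 34.9% called over all tested probe sets. TGFB2, a TGFβ ligand, rose by 0.49 (limma's adjusted p = 0.00049), while FOXF2, a mesenchymal transcription factor, fell by 0.51 (adjusted p = 0.00033) and MYOF, a membrane repair protein, by 0.48 (adjusted p = 0.00902). In Oct4med against Oct4low BCCs 6 were lower and 1 was higher, with a median of -0.24, beside a median of 0.01 and 20.7% called over all tested probe sets. From Oct4med to Oct4hi BCCs 7 were higher and 1 was lower, with a median of 0.30, beside a median of 0.02 and 26.8% called over all.

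**Figure D4:**
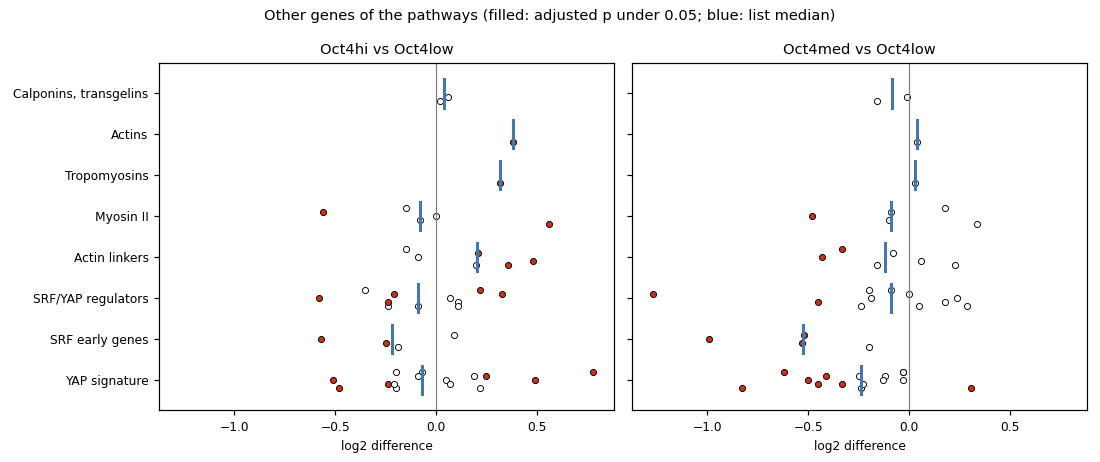
Log2 difference (horizontal) of the tested genes of 8 lists (vertical), with Oct4hi minus Oct4low BCCs on the left and Oct4med minus Oct4low BCCs on the right; filled points have an adjusted p under 0.05 and blue bars are list medians. In Oct4hi BCCs the YAP signature has a median of -0.07 with filled points on both sides of 0, and in Oct4med BCCs its median is -0.24.

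Markers of cells that carry contractile genes were examined in the same arrays. Of 11 markers of smooth muscle and myoepithelial cells, 8 were in the table, and their mean level was 6.26 to 6.32 in Oct4low, 6.33 to 6.34 in Oct4med and 6.37 to 6.46 in Oct4hi arrays. ACTA2, DES, SMTN and OXTR, the oxytocin receptor, were higher in Oct4hi than in Oct4low BCCs. The first 3 of these also stand in the lists above. Means in the 3 subsets were 5.59 to 5.96 for ACTA2, 5.76 to 6.12 for DES, 7.57 to 7.86 for SMTN and 5.67 to 6.02 for OXTR. Those of ACTA2, DES and OXTR were not far above the array medians. Among the others, smooth muscle myosin MYH11 (5.37 to 5.48 in the 3 subsets), leiomodin LMOD1 (4.77 to 4.88) and the basal keratin KRT5 (5.33 to 5.43) had means near the array medians. MYLK (9.83 to 10.16) was far above them, and was lower in Oct4hi than in Oct4med BCCs. LMOD1 was not tested, KRT5 passed no comparison, and of 2 tested MYH11 probe sets 1 was higher in Oct4med than in Oct4low BCCs and 1 was lower in Oct4hi than in Oct4med BCCs. Of 9 stromal markers, 8 were in the table at a mean level of 4.83 to 5.00, with none called in Oct4hi against Oct4low BCCs. Their part in the rise of CNN1, TAGLN and NPPB was not tested. As a check of the label, 7 of 8 markers listed for MDA-MB-231 cells were in the table. CD44 (10.87 to 11.22), CAV1 (12.04 to 12.40), TGFBI (11.75 to 12.34), PLAU (8.55 to 8.85) and SPARC (6.95 to 7.55) had means above the array medians in all subsets. MSN (4.90 to 5.18) was near them, and the vimentin (VIM) probe set in the table (3.75 to 4.04) was below. Of 10 luminal markers 6 were in the table. E-cadherin (CDH1, 3.92 to 4.19) was below the medians, whereas MLPH (8.37 to 9.24), EPCAM (7.87 to 8.08) and GATA3 (6.87 to 7.63) were above. ESR1 (5.83 to 6.18) was less far above. TFF1 (5.30 to 6.62) was near the medians in Oct4med BCCs and above them in the other subsets.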

How the data were processed

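Affymetrix U133 Plus 2.0 arrays were hybridized with total RNA of sorted MDA-MB-231 cells (4 Oct4low, 2 Oct4med and 4 Oct4hi arrays). The deposited values are log2 intensities of 25750 probe sets, from 2.37 to 14.46. The authors background-corrected and RMA-normalized them with BRB-Array Tools and left out features with low signal or little variation. A member's missing probe set may thus have been filtered. Genes were named from the platform annotation. A linear model with a mean per subset was fitted to all 10 arrays with limma 3.58.1 in R 4.3.3 for the 13872 probe sets, without manufacturer controls, at or above the array median in at least 2 arrays. The step was tested on simulated data. Intervals are at 95%. The number of arrays, above all 2 of Oct4med BCCs, limits the precision. Alternatives were other filters, scalings, weights, priors, samples and tests, the replicate number as a block, and leaving out each array. The members, lists and named genes (every member probe set; up to 4 called genes per pathway list with the largest difference between Oct4hi and Oct4low BCCs; the tested SRF and YAP regulators; the 5 nearest profiles to CNN1) were chosen with earlier results of these data known. The p-values rest on the spread among these arrays alone. Some of the regulators counted are not reported here by name. Marker genes were named after their values were seen.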

Additional observations from a re-analysis of the deposited data

Results flagged for a closer look

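For 36 sets of 4 arrays (18 member probe sets in Oct4low and in Oct4hi BCCs), the gap of the most distant array to its neighbour was divided by the range of the 4. It was above the 95% critical value of Dixon's test in 4, where chance gives about 1 in 20. ACTG2 202274_at in Oct4low replicate 3 was at 8.28, beside 8.13 to 8.14 in the other arrays (ratio 0.924). TPM2 204083_s_at in Oct4low replicate 1 was at 7.36, beside 7.56 to 7.59 (ratio 0.843). TPM4 209344_at in Oct4hi replicate 1 was at 10.92, beside 9.98 to 10.14 (ratio 0.831). CALD1 201617_x_at in Oct4low replicate 4 was at 6.04, beside 6.52 to 6.57 (ratio 0.913).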

How the results depend on the processing

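Over 906 pairs of a member difference and an alternative, 834 kept direction and side of the threshold, 41 lost and 14 gained the call and 17 turned sign. Of the counts of called members, that of Oct4hi against Oct4low BCCs (11) was 6 of 7 without _x_at and _s_at probe sets, which fewer tested probe sets account for, and 8 to 12 when 1 array was left out. That of Oct4med against Oct4low BCCs (6) was 3 with the two-sample t-test, 3 with the replicate block, 3 of 7 without _x_at and _s_at probe sets and 3 to 6 when 1 array was left out, with 3 without Oct4med replicate 2. That of Oct4hi against Oct4med BCCs (6) was 6 to 8 when 1 array was left out. The study isolated the RNA in separate experiments, and the labels do not say which arrays share one. Same-numbered arrays of different subsets had deviations that correlated at -0.264 to 0.277, and those with different numbers at -0.508 to 0.508. The 2 Oct4med arrays deviate from their mean in equal and opposite ways, so their correlations are mirrored by construction. Between Oct4low and Oct4hi arrays alone, the ranges were -0.211 to 0.277 with the same number and -0.314 to 0.414 with different numbers. The number was thus no guide to pairs, and a pairing under other numbers was not tested. The main fit paired no arrays. The block by number gave 10 and 6 calls in the comparisons of Oct4hi BCCs. The turned signs were all of differences that did not pass with all arrays. Quantile normalized again, ANKRD1 was 0.04 in Oct4med against Oct4low BCCs, and TPM2 204083_s_at was -0.02 and CALD1 201615_x_at -0.06 in Oct4hi against Oct4med BCCs. With the replicate block ANKRD1 was 0. When 1 array was left out, the range in Oct4med against Oct4low BCCs was -0.02 to 0.30 for ACTG2 241148_at, -0.16 to 0.10 for ANKRD1, -0.03 to 0.44 for TPM4 1567107_s_at, -0.12 to 0.54 for CALD1 201616_s_at and -0.05 to 0.65 for CALD1 201617_x_at. In Oct4hi against Oct4med BCCs it was -0.03 to 0.17 for TPM2 204083_s_at, -0.71 to 0.02 for TPM4 209344_at, -0.06 to 0.41 for TPM4 1567107_s_at, and for CALD1 -0.16 to 0.50 (201616_s_at), -0.17 to 0.34 (201615_x_at), -0.29 to 0.09 (215198_s_at) and -0.01 to 0.70 (201617_x_at). Apart from TPM2, each of these signs turned without 1 of the Oct4med arrays. The cause was not tested. A lone Oct4med array was assumed to vary like the other groups. Values near the array medians limit how exactly CNN1 and NPPB were measured.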

Other observations

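Immediate-early genes that SRF drives with ternary complex factors were counted apart from the contractile members. Of 4 tested genes, 3 were lower and none was higher in Oct4med against Oct4low BCCs (median -0.52): FOSB (-0.99, limma's adjusted p = 1.11e-05), EGR3 (-0.53, adjusted p = 0.0021) and MCL1, a survival factor (-0.52, adjusted p = 0.000878, with 2 of its 4 probe sets lower). In Oct4hi against Oct4low BCCs, FOSB (-0.57, adjusted p = 8.53e-05) and EGR3 (-0.25, adjusted p = 0.0253) were lower and none was higher. In Oct4hi against Oct4med BCCs 3 were higher and none was lower (median 0.35). Over all tested probe sets, 20.7%, 34.9% and 26.8% were called in these comparisons. Relatives of the cardiac members did not pass: NPPA, the atrial natriuretic peptide, had a difference of -0.17 and the receptor NPR3 of 0.08 between Oct4hi and Oct4low BCCs.

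Of the remaining marker lists, luminal breast genes had 3 of 5 tested genes lower and none higher in Oct4hi than in Oct4low BCCs, namely MLPH (-0.87, limma's adjusted p = 4.92e-06), the transcription factor GATA3 (-0.76, adjusted p = 7.26e-05) and TFF1 (-0.48, adjusted p = 0.0146). TFF1 was lowest in Oct4med BCCs and was higher in Oct4hi than in Oct4med BCCs (0.84, adjusted p = 0.00325 from limma). The list written for MDA-MB-231 cells had 3 of 5 lower and 1 higher in Oct4hi than in Oct4low BCCs. Over all tested probe sets, 16.7% were lower and 18.2% higher in that comparison. Of 3 tested erythroid genes, 1 was higher, the embryonic globin HBE1 (0.73, adjusted p = 4.56e-05), and of 2 tested leukocyte genes none was called.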
